A study of Homo sapiens with 2 samples.

Results

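The 9 genes described here encode scaffolds of nuclear speckles and the kinases of SR proteins: SON, SRRM1, SRRM2, ACIN1, PNN, SRPK1, SRPK2, CLK1 and CLK2. They were chosen by name. A peak of the deposited list was taken as theirs where its gene number was that of the gene and its midpoint lay inside the gene's RefSeq span. This gave 7 of the 1406 distinct intervals of the list, in 6 of the 9 genes.

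Nuclear speckles are bodies in the nucleus where splicing factors gather. SON and SRRM2 are large proteins rich in arginine and serine that hold these bodies together. SR proteins, which bind exons and recruit the splicing machinery, carry arginine-serine stretches whose phosphorylation sets where they are and what they bind. SRPK kinases phosphorylate them mainly in the cytoplasm, which promotes their import into the nucleus, and CLK kinases phosphorylate them in the nucleus, which releases them from speckles.

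The data came from HITS-CLIP, which crosslinks RNA to protein by ultraviolet light, recovers the protein with an antibody and sequences the attached RNA fragments as tags. It was run as 2 biological replicates on MDA-231-LM2, a lung-tropic subline of the breast cancer line MDA-MB-231, grown without any treatment that the labels name, to find where SF3B1 contacts RNA. SF3B1 is a subunit of the U2 snRNP that sits at the branch point of introns. The labels give an antibody to SF3B1, but the protocol text names SNRBP2 as the protein recovered, and this was not resolved. Of 10 markers of this lineage, VIM, AXL, KRT7 and ANXA1 held an interval, and CD44, CAV1, MSN, KRT18, KRT8 and S100A4 did not. Of 9 markers of other cell types 0 did. Only 5.27% of all protein-coding genes held one, so an absence among 9 genes says little about the cells.

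The list pooled both replicates and has no value for either, and no input or control library was used here. The values below therefore have no replicate error, and no difference between them was tested. The height of a peak is the authors' count of pooled tags at its top. Its 95% interval is an exact Poisson interval, which covers counting error only. Tags per library were not known, nor were transcript levels, so the amount of each RNA and its contact with the protein cannot be told apart. No genome sequence or exon annotation was used, so the peaks were not split into exons, introns or untranslated regions, and their sequences are not printed. Positions are on hg38.

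Peaks lay in all 3 scaffold genes, in 1 of the 2 genes of exon junction partners and in 2 of the 4 kinase genes. Across the whole list, 5.27% of the 20052 protein-coding genes held a peak, against 6 of the 9 genes here. A peak above the median height of the list lay in 4 of the 9 genes, SON, SRRM2, ACIN1 and SRPK1, and in 2.42% of protein-coding genes. The 9 genes were chosen with earlier results of these data known, so these shares are a description. The 7 heights ran from 6 to 17 tags with a median of 11. Over all 1406 intervals the median was 7 tags, with quartiles of 6 and 11. Of the 7, 5 stood above the median of the list, where 46.4% of all intervals did. They summed to 80 tags, 0.510% of all heights, close to their 0.498% of the intervals. None came near the tallest peak of the list, of 248 tags.

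**Figure D1:**
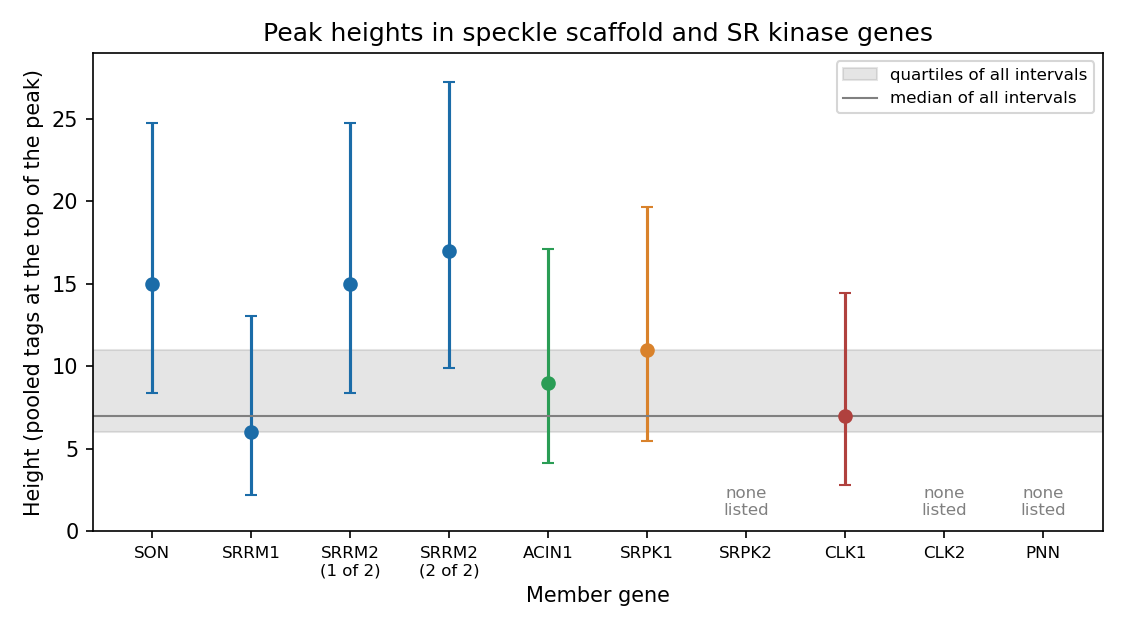
Height in pooled tags of each peak in the 9 genes, with the exact 95% Poisson interval as the bar; the line and band give the median (7) and quartiles (6 and 11) of all 1406 intervals. Peaks of SON and SRRM2, at 15 to 17 tags, lie above the band, the other genes' peaks lie at 6 to 11, and SRPK2, CLK2 and PNN have none listed.

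SRRM2 encodes a scaffold that also sits in the catalytic spliceosome near the exon. Its gene held 2 peaks on the plus strand of chromosome 16. The upstream peak had 15 tags (8.40 to 24.7) at 2760253 to 2760298. The downstream peak had 17 tags (9.90 to 27.2) at 2770310 to 2770357. Their counting intervals overlap widely, so the 2 heights could not be ranked. The peaks lay 10.1 kb apart in a gene of 18.8 kb, the upstream one 40.7% and the downstream one 94.3% along it, with 1.08 kb left to the end of the span. Among protein-coding genes with a peak, 17.6% held 2 or more, and SRRM2 was the only one of the 6 genes here to do so. With 1.07 peaks per 10 kb it had the highest density of the 9 genes.

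SON encodes the other main scaffold, a protein that also binds RNA and promotes the splicing of weak introns. It held 1 peak of 15 tags (8.40 to 24.7) on the plus strand of chromosome 21, at 33553421 to 33553489. The peak lay 10.4 kb from the start of a 34.4 kb gene, 30.2% along it. At 69 nt it was the widest of the 7, wider than 97.8% of all intervals, whose median was 43 nt. The span of SON also holds the microRNA gene MIR6501, which ends 2.69 kb upstream of the peak. The deposited list repeats this interval under 4 other genes, CRYAA, SMIM11, LOC102724652 and LOC102723553. All are on chromosome 21, and none has a span that holds the peak. SON alone does, so the peak was counted once.

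SRRM1 encodes a splicing coactivator that bridges SR proteins on exonic enhancers and the core machinery. Its peak was the lowest of the 7, with 6 tags (2.20 to 13.1) on the plus strand of chromosome 1, at 24648791 to 24648833. Of all intervals, 77.5% were at least as tall. The peak lay 18.4% along the 30.0 kb gene, the nearest to a gene's start of the 7 by this measure. The 3 annotated starts of SRRM1 in the RefSeq promoter table all lay upstream of it, the nearest by 5.23 kb. Together the scaffold genes held 4 of the 7 peaks and 53 of the 80 tags.

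ACIN1 and PNN encode partners of the exon junction complex, the mark left on spliced RNA upstream of exon joins. ACIN1 forms the ASAP complex with RNPS1 and SAP18, and PNN takes its place in the related PSAP complex. ACIN1 held 1 peak of 9 tags (4.12 to 17.1) on the minus strand of chromosome 14, at 23063485 to 23063527. It lay 86.7% along the 37.1 kb gene, 4.94 kb from the end of the span. All 3 annotated starts lay upstream of it, the nearest by 8.06 kb. PNN, also on chromosome 14 and with 7.97 kb the shortest of the 9 genes, held none.

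Among the kinases, SRPK1 held a peak and SRPK2 did not. The SRPK1 peak had 11 tags (5.49 to 19.7) on the minus strand of chromosome 6, at 35835500 to 35835542. It lay 97.1% along a gene of 88.1 kb, 2.56 kb from the end of the span and 85.6 kb from its start. SRPK2 spans 285 kb, more than any other of the 9, and held no listed interval on either strand.

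Of the nuclear kinases, CLK1 held a peak and CLK2 did not. CLK1 regulates the splicing of its own transcript in many cells. Its peak had 7 tags (2.81 to 14.4) on the minus strand of chromosome 2, at 200859761 to 200859815, equal to the median height of the list. It was 55 nt wide, wider than 92.5% of all intervals, and lay 41.8% along the 11.7 kb gene. CLK2 is of like span, 10.6 kb, and had no interval on either strand. The list holds only peaks that the authors called significant, so a gene without a peak may still have had tags. The lowest height in the whole list is 3 tags, and among protein-coding genes with expected heights of 0.05 to 0.29 it is 5.

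The span of the genes did not order them by peaks. The share of all protein-coding genes with a peak was larger at longer spans, from 1.89% up to 10 kb and 3.94% from 10 to 20 kb to 5.94% from 20 to 50 kb, 8.07% from 50 to 100 kb and 9.10% from 100 to 200 kb, and was 8.79% beyond. The 3 genes here of 20 to 50 kb, SON, SRRM1 and ACIN1, each held 1 peak. Of the 3 genes of 10 to 20 kb, SRRM2 held 2 peaks, CLK1 held 1 and CLK2 held 0.

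**Figure D2:**
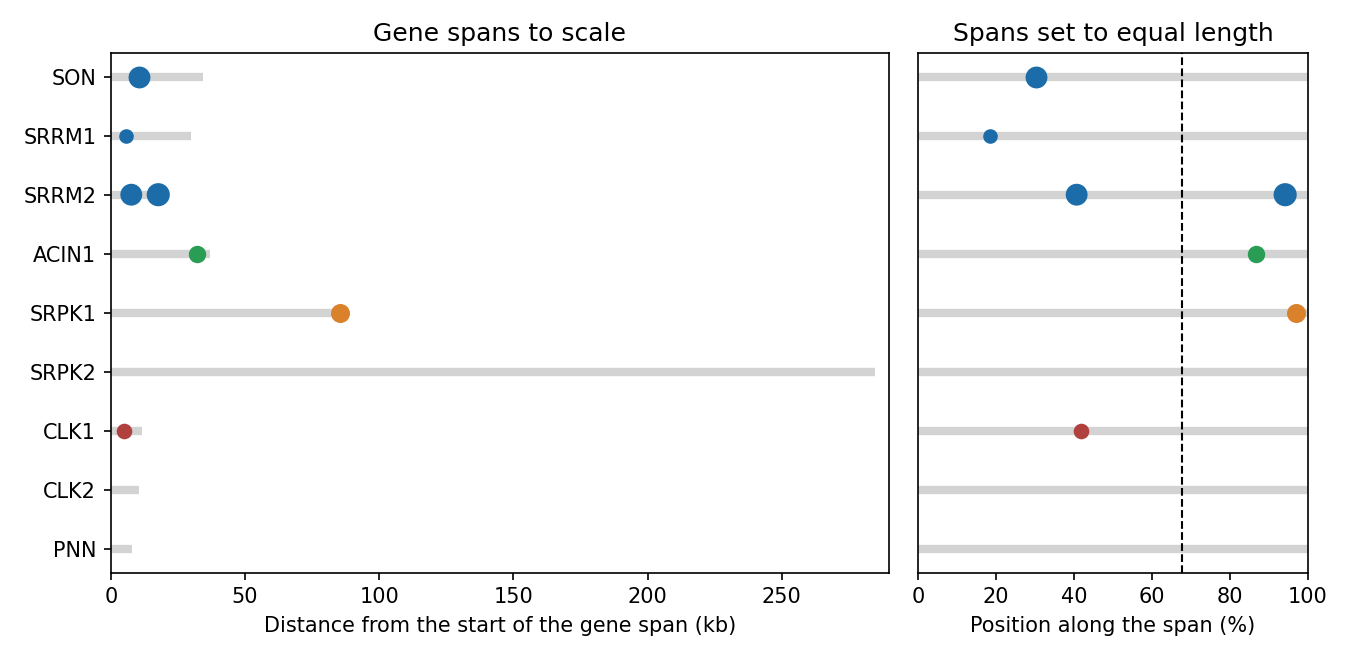
Gene spans as grey bars with peaks as dots whose area grows with height, at left by distance in kb from the start of the span and at right with all spans set to equal length. Peaks of SRRM2 (the downstream one), ACIN1 and SRPK1 lie 86.7% to 97.1% along their genes and the other 4 at 18.4% to 41.8%; the dashed line marks the median of 67.7% over protein-coding genes.

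Along their genes, 3 peaks lay past 50% of the span and 4 before it, and 2 lay within 3 kb of the end. The downstream SRRM2 peak and those of ACIN1 and SRPK1 lay 86.7% to 97.1% along. The other 4 lay 18.4% to 41.8% along, and none of the 7 was in the first 10% of its gene. The peak nearest to an annotated start, that of CLK1, was 4.77 kb from it. For comparison, 1095 intervals, counted once per gene, lay in protein-coding genes with a strand in the promoter table. Their median position was 67.7%, with quartiles of 41.1% and 85.8%. In that set 4.84% were in the first 10% and 18.1% in the last 10%, against 0 and 2 of the 7 here. All 7 lay on the strand of their gene, as did 100% of the 1095. The gene numbers came with the list, and whether strand was used to give them is not known. The match in strand is therefore not read as a property of the peaks. Of the 7, 0 lay inside any other RefSeq gene.

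The height that the authors' list expects for each gene gives a second scale. The expected height was 0.29 tags for SRRM2, 0.10 for CLK1, 0.09 for SON and ACIN1, 0.07 for SRRM1 and 0.05 for SRPK1. The median of these 6 genes was 0.09, and that of all protein-coding genes with a peak 0.04, with quartiles of 0.02 and 0.09. Only 7.00% of such genes had an expected height above that of SRRM2. The peak of SRPK1 stood 220 times above its expected height, and that of SON 167 times. The ratio was 100 for ACIN1, 85.7 for SRRM1, 70.0 for CLK1 and 51.7 and 58.6 for the peaks of SRRM2. The peaks of SRRM2 thus had high heights but the lowest ratios of the 7, while SRPK1 had the highest ratio at 11 tags. With the Poisson bounds of the heights, the ratio of SRPK1 spans 110 to 394 and that of the taller SRRM2 peak 34.1 to 93.9. These ranges do not overlap, but they hold counting error only, and the expected heights differ, 0.05 against 0.29. The ranges of SON, ACIN1, SRRM1 and CLK1 overlap both. No order of the ratios was tested. The comparison took 1268 intervals in protein-coding genes with an expected height above 0, an interval inside several listed genes counted under each. Their median ratio was 167, with quartiles of 81.6 and 333. SRPK1 lay above this median, SON on it, and the other 5 peaks below it. The ratio depends on the expected height as well as on the peak. The lowest listed peak was 5 tags at an expected height of 0.05 and 8 tags at 0.29. All 6 genes had expected heights above the median of 0.04, so these places do not rank the strength of the peaks. Expected heights are given to 2 decimals, and this rounding alone lets the ratio of SRPK1 lie between 200 and 244.

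**Figure D3:**
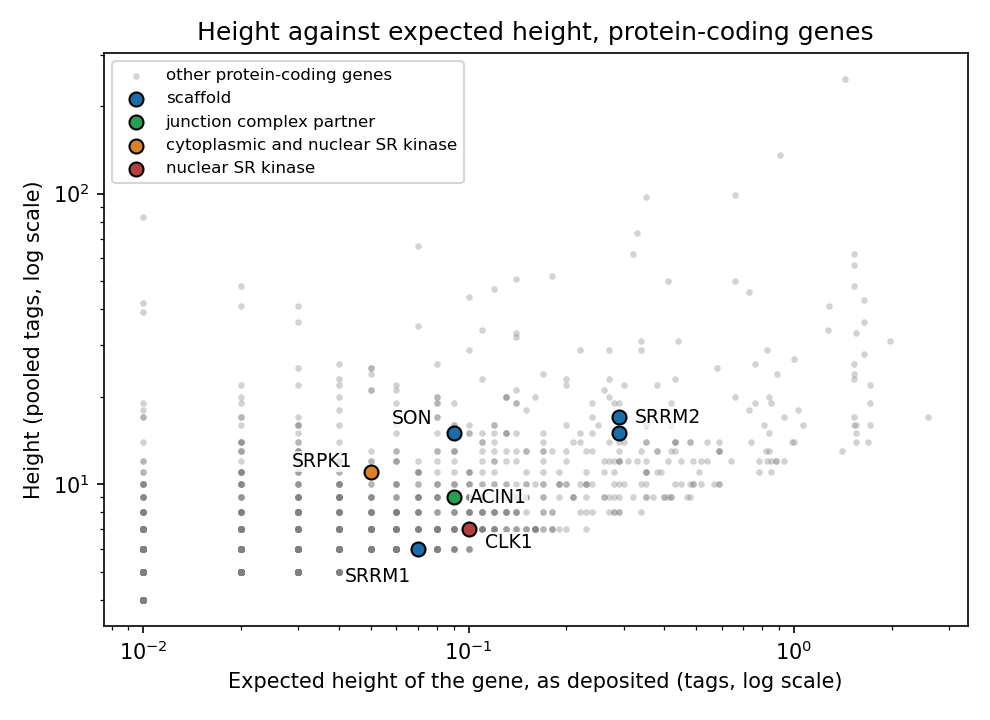
Height in pooled tags against the deposited expected height of the gene, both on log axes, for 1268 intervals counted once per gene. All lie in protein-coding genes with an expected height above 0, nested small RNA genes included. Named dots are the genes described here, coloured by role. SRRM2 lies furthest right at 0.29, SRPK1 furthest left at 0.05, and SRRM1 lies on the lower edge of the cloud at 6 tags.

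Set against peaks of the same expected height, the genes spread over the range that the list allows. SRRM1 lay at its lower edge: of 47 intervals with an expected height of 0.07, the lowest listed was 6 tags, the height of SRRM1 itself. CLK1 stood close to that edge too, with 34 of 38 intervals at 0.10 at least as tall. ACIN1 was in the middle, with 16 of 34 at 0.09 at least as tall. SON was near the top of those same 34 intervals, of which 5 reached 15 tags. For SRPK1, 12 of 66 intervals at 0.05 reached 11 tags. At 0.29, the value of SRRM2, the list holds 12 intervals of 8 to 19 tags in 8 genes, of which 3 reached 15 tags and 2 reached 17. The counts include the peaks described here.

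The deposited p-values follow a like order at the weak end. In the authors' deposited table, SRRM1 had the weakest value of the 7, 1.09e-02, and CLK1 the next, 5.39e-04. ACIN1 had 9.30e-08, and both SRRM2 peaks had 6.65e-10 at different heights. SON and SRPK1 had 1.00e-100, the lowest value that occurs, which the authors' deposited table gives for 346 of its 1587 rows. The repeats of the SON interval did not all share its value. The authors' deposited table gives 1.28e-06 under CRYAA and 9.30e-07 under SMIM11, both with an expected height of 0. Under LOC102724652 and LOC102723553 it gives 1.00e-100. How these p-values were computed is not given in the sources used here, and the highest listed is 0.0499.

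The genes around these were described by 5 lists of other speckle, SR and kinase genes, each to be read against the 5.27% of all protein-coding genes. Of the SR proteins, the substrates of the kinases, 9 of 14 genes held a peak, with a median tallest height of 11 tags. SRSF6 led with 46 tags (33.7 to 61.4), followed by SRSF2 with 22, SRSF5 with 13, SRSF1 with 12, and SRSF3 and TRA2B with 11 each. No counting interval of a peak in the 9 genes reaches the lower bound of SRSF6. Of other speckle and SR-related proteins, 17 of 45 held a peak, with a median tallest height of 9. LUC7L3, a protein of the U1 snRNP, led with 47 tags (34.5 to 62.5) and stood 392 times above its expected height. The splicing regulators RBM5 and RBM39 followed with 29 and 22 tags, and RBM6 and RSRP1 with 16 and 14.

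Of 14 other kinases of SR proteins and of splicing, 2 held a peak (14.3%): PRP4K, a kinase of the assembling spliceosome, held a peak of 6 tags, and HIPK2, a kinase of nuclear bodies, one of 5. The closest relatives of the kinases described here, SRPK3, CLK3 and CLK4, held none. Of the exon junction complex and its partners, RBM8A alone of 10 genes held a peak, of 6 tags, so RNPS1 and SAP18, which join ACIN1 in the ASAP complex, held none. The shares of the lists were not compared by a test.

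**Figure D4:**
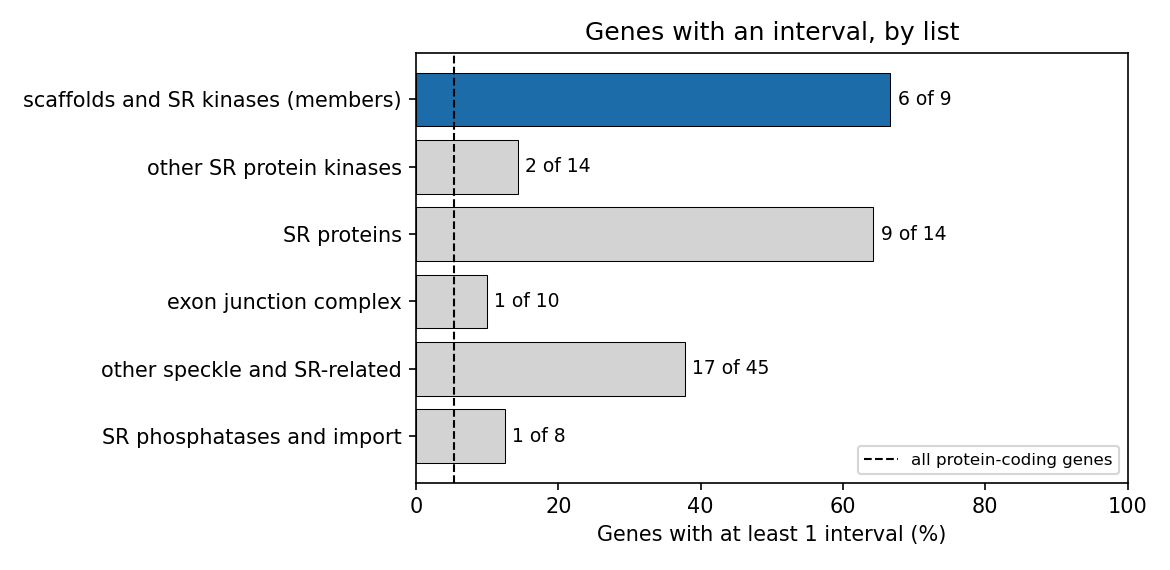
Percent of genes with at least 1 interval in the 9 genes described here and in the 5 lists, with counts beside the bars and the 5.27% of all protein-coding genes as the dashed line. The scaffolds and SR kinases (6 of 9), the SR proteins (9 of 14) and the other speckle proteins (17 of 45) have the longest bars; the other 3 rest on 1 or 2 genes each.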

How the data were processed

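HITS-CLIP was done on 2 replicates of 1 group. The authors deposited 1 list of peaks on pooled unique tags, whose height is a signal in tags with no normalization; a text field of the deposited list, of no single unit, adds the gene number, the expected height and a p-value. The notes of the submitters on processing name BWA 0.7.17, cutadapt 2.3 and hg38, per the labels; the peak caller and its annotation are not given in the sources used here.

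Rows of equal position and strand were counted once per gene. Gene names, spans and strands came from RefSeq tables of GRCh38.p14, which matched 1190 of 1191 gene numbers and 91 of 92 list entries, 1 through an older symbol. CIR1 stayed unmatched. Gene starts and strands are those of the promoter table, and distances run from midpoints. All 9 members are named, and of each list up to 5 genes with the tallest peaks plus ties, or genes related to a member. Members and lists were chosen with earlier results of these data known. With 1 pooled list there was no test. The assignment of intervals was tested on simulated data. Alternatives were stricter heights and p-values, any overlap, gene numbers as listed, any interval in the span, all rows, merging, and other summaries. A planned description of arginine-serine content was not run here. Scripts used scipy 1.17.1, numpy 2.4.6, matplotlib 3.10.9 and pandas 2.3.3 under Python 3.11.15.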

Additional observations from a re-analysis of the deposited data

How the results depend on the processing

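Of 43 alternative values, 38 stayed within 1.5 times the main count or within the counting interval of the main value. With intervals above the median height alone, 4 of the 9 genes and 5 of the 7 peaks remained, without SRRM1 and CLK1, against 2.42% of protein-coding genes. The fall from 6 to 4 genes lay at the limit of 1.5 times. With deposited p-values of at most 0.01, SRRM1 dropped out and 5 genes remained. Any overlap of 1 nt, gene numbers as listed, any interval in the span, every row counted and merging within 50 nt all gave 6 genes and 7 peaks. These settings left the 7 peaks as they were, so their many values among the 38 say little about how firm the results are. The median ratio of height to expected height was 85.7, and as a difference, on another scale, 10.95 tags. Alternatives for the lists were chosen after seeing the data: above the median height, the other kinases, the exon junction complex, and the phosphatases and import factors each had 0 genes, and the last also had 0 at p-values of at most 0.01. No replicate could be left out and no paired analysis was possible because the list pools both replicates of 1 group. Heights of 6 to 17 tags limit any ranking of the peaks.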

Other observations

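Of 8 genes of the phosphatases that act on SR proteins and of their nuclear import factors, TNPO1 alone held a peak (12.5%, beside 5.27% of all protein-coding genes). TNPO1 is a nuclear import receptor, and its peak had 5 tags (exact Poisson 95% interval 1.62 to 11.7) and a p-value in the authors' deposited table of 3.76e-02. TNPO3, the receptor that carries phosphorylated SR proteins into the nucleus, held none, nor did the catalytic subunits of protein phosphatases PP1 and PP2A on the list.

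Several speckle genes outside the 9 held more than 1 peak. RBM39, which resembles the large subunit of U2AF, held 3, of 22, 14 and 10 tags. SRSF5 and SRSF2 also held 3 each, the former of 13, 7 and 7 tags and the latter of 22, 19 and 16. In the deposited list RBM5 and RBM6, related RNA-binding proteins on chromosome 3, had peaks on the same strand, at 29 and 10 tags for RBM5 and 16 for RBM6.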
